A study of Mus musculus with 15 samples.

Results

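Nucleosome occupancy was examined at the promoters of genes with mRNA in dendritic cells (DCs) and none listed in fibroblasts. A promoter entered this set when its annotated row was a protein-coding transcript, its coverage score exceeded 100 (fragments within 1000 bp of the transcription start site (TSS), as averaged by the authors), its DC expression exceeded 0.05 FPKM and its fibroblast expression was listed at 0. The rule gave 401 promoters out of 25881 annotated TSSs, which is 3.39% of the 11833 protein-coding promoters of high coverage. They are called DC-only promoters below, as a shorthand for this rule. The rule used expression and coverage, so both are given here as description. It did not use the nucleosome signal.

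The occupancy came from ChIP-MNase, in which an antibody first retrieves fixed chromatin in large pieces, and micrococcal nuclease then trims it down to the DNA that nucleosomes protect. DCs were differentiated in culture from mouse bone-marrow progenitor lines, and the fibroblasts were 3T3 cells, an established mouse line. There are 15 libraries. The H3K4me1 pooled sets are non-stimulated DCs (DC_ns), DCs after 1 h of LPS at 100 ng/ml (DC_st), non-stimulated fibroblasts (fibro_ns) and fibroblasts given TNF-α (5 ng/ml) for 1 h (fibro_st), and each holds 2 replicates merged by the authors. A further 8 single H3K4me1 libraries are of control 3T3 fibroblasts and of 3T3 fibroblasts with a stable knockdown of Brg1 and Brm, the catalytic subunits of the BAF remodelling complex, without stimulation and after 1 h of TNF-α, with 2 replicates of each. The last 3 libraries were recovered from TNF-α-stimulated fibroblasts with antibodies to RNA pol-II phosphorylated on Ser7 (S7P, 2 replicates) or Ser5 (S5P, 1 library). DCs were represented by pooled sets only, and no DC library had a knockdown.

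An active promoter typically has a nucleosome-depleted region (NDR) just upstream of its TSS, where general factors and RNA pol-II assemble, and a well-placed nucleosome just downstream of it. CpG islands (CGIs) tend to keep such a gap open in many cell-types, whereas promoters without a CGI rely more on factors bound in the cell at hand. In DCs these include PU.1, an ETS-family factor of the myeloid lineage that binds the letters AGGAAGT, and factors of the IRF family, which bind repeats of GAAA in interferon-responsive promoters. DCs are sentinel cells that take up antigen, sense microbes and secrete cytokines, and the 401 promoters hold receptors, chemokines and antiviral sensors of these pathways.

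The following sequences are the 150 bases before the TSS (positions −150 to −1, mm9, written 5′ to 3′ on the strand of the gene) of 7 DC-only promoters without a CGI. They were chosen after their values were seen, to show motif-bearing promoters whose DC and fibroblast occupancies lie apart (Ncf4, Slamf9, Tnf, Oas1a, Oas2), a promoter with a TATA box whose occupancies do not (Il1b), and a promoter with none of these motifs (Ccr1). Capitals mark, on either strand, the PU.1-type letters AGGAAGT, the TATA box letters TATAAA, and the IRF repeat. The IRF repeat is a pair of GAAA units separated by any 2 bases. Ncf4 lies at chr15:78075092-78075241 (plus strand), Slamf9 at chr1:174405342-174405491 (plus), Tnf at chr17:35338942-35339091 (minus), Oas1a at chr5:121357535-121357684 (minus), Oas2 at chr5:121199858-121200007 (minus), Il1b at chr2:129196857-129197006 (minus) and Ccr1 at chr9:123883526-123883675 (minus).
Ncf4: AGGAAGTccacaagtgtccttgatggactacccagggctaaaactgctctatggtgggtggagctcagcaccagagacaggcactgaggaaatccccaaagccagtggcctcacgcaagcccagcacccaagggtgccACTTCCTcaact
Slamf9: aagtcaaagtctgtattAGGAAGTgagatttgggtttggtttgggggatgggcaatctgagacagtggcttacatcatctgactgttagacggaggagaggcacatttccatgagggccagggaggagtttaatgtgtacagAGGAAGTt
Tnf: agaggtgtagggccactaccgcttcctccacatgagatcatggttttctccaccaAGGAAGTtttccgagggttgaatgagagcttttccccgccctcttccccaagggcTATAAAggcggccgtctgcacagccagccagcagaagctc
Oas1a: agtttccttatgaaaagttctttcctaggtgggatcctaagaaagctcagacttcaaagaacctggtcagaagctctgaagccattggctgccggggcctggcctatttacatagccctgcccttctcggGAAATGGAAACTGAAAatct
Oas2: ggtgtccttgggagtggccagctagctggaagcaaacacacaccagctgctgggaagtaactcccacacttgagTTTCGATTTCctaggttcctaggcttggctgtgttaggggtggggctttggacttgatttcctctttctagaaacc
Il1b: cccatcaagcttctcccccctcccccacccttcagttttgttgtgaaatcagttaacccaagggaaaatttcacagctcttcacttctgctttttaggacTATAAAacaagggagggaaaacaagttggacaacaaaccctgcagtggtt
Ccr1: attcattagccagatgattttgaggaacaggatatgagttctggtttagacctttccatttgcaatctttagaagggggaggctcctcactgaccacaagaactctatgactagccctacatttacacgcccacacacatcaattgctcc
Ncf4 carries AGGAAGT at −150 and, on the opposite strand, at −12, and Slamf9 carries it at −133 and at −8. Tnf has both AGGAAGT, at −95, and TATAAA, at −40. Oas1a has overlapping IRF repeats that begin at −20 and −14, and Oas2 has a repeat on the opposite strand at −76.

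Expression of the DC-only genes ranged from 0.0503 to 145 FPKM in DCs, with a median of 0.634 and quartiles at 0.192 and 3.06. Near the thresholds, Hrh1 (a histamine receptor) was just inside at 0.0503 FPKM and Nanos2 (a germ-cell RNA-binding protein) just outside at 0.04997. Ifi214 and Adora2a were just inside the coverage limit, each with a score of 100.75, and Cds1 was just outside at 99.75. The same rule without the coverage limit gave 526 promoters, so 125 were set aside for low coverage. The limit on fibroblast expression was the narrow one. Among high-coverage coding promoters with more than 0.05 FPKM in DCs, 279 had a fibroblast value above 0 and up to 0.001, 309 one up to 0.05, and 6785 one above 0.05. The classic DC genes are therefore mostly outside the set. None of 12 DC markers, among them Itgax, Cd74 and Spi1, was a member, although their summed expression was 359 FPKM in DCs and 3.70 in fibroblasts.

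A value of 0 in fibroblasts did not always mark a gene specific to DCs. Of the 401 promoters, 34 belong to replication-dependent histone genes, whose mRNAs lack a poly(A) tail. A further 31 belong to genes with another row expressed in fibroblasts, such as Eif5a, a translation factor, and Sgk1, a stress kinase. Another 11 lie within 1000 bp of a TSS expressed in fibroblasts, such as that of Rnps1. Without these 76 promoters, 325 remained. Of 71 histone promoters among the high-coverage coding rows, 32 were expressed above 0.05 FPKM in both cell-types. The 34 histone members belong to genes that dividing cells use, yet are listed at 0 in fibroblasts. So is Stat3, a broadly used signalling factor with a single row that was not among the 76. A listed 0 can therefore be a missing estimate, and it is given here as a listing, not as absence of mRNA. Few markers of other blood cells were members. Of 7 neutrophil and granulocyte precursor markers, S100a9 (19.7 FPKM in DCs) and Camp (0.0848) were members, and S100a8, which is not a member, was at 23.3 FPKM in DCs. In DCs 6 of these 7 exceeded 0.05 FPKM, with a sum of 43.7 FPKM. The summed values of mast cell, B cell and T cell markers in DCs were 0.0864, 0.245 and 0.0465 FPKM. In these bulk values fewer cells of a type and less RNA per cell cannot be told apart. Fibroblast markers summed to 31.4 FPKM in DCs, of which Fn1 gave 31.0, and to 3497 in fibroblasts. The part of these other cell types in the occupancies was not tested.

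The DC-only promoters were poor in CpG. A CGI, meaning at least 50% GC and an observed to expected CpG ratio of at least 0.6 over the 200 bp to either side of the TSS, was found at 123 of them (30.7%). It was found at 38.2% of the 896 promoters with fibroblast expression above 0.05 FPKM and DC expression listed at 0, at 75.7% of the 6785 expressed above 0.05 FPKM in both cell-types, and at 12.2% of the 926 listed at 0 in both. Their median observed to expected CpG ratio was 0.270, against 0.709 over all high-coverage coding promoters. Without the 76 promoters above, 59 of 325 (18.2%) had a CGI. Along chromosomes, 163 of the members (40.6%) had another within 100 kb, and 10 clusters of 4 or more held 69. These shares were not calculated for other promoters, so they are not set apart from a background. The largest cluster holds 17 histone promoters at chr13:21808012-21925613. The next holds 8 promoters of genes with Gm symbols, such as Gm13276 (chr4:88430959-88451436). A cluster of 7 at chr17:37603154-37727296 is mostly of olfactory receptor genes such as Olfr110. Others hold the Clec4 lectin receptors (7 members at chr6:122902663-123239889), Ms4a genes (6 at chr19:11410588-11679294) and Cd300 receptors (5 at chr11:114863194-114995306), which are families of immune cell surface proteins. Promoters in a cluster can be copies of each other, and 43 members share their accession with another row.

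Searched on both strands from −250 to +49 bp, the motif AGGAAGT was found in 77 of the 278 members without a CGI (27.7%), against 10.1% of all 13559 high-coverage promoters. The share was 36.4% among the 66 of them in the highest quartile of DC expression. The IRF repeat was found in 9.71% of members without a CGI, against 3.60% of all promoters, TATAAA in 19.4% against 9.71%, TTGCNNAA (which C/EBP factors bind) in 16.5% against 8.98%, and TGANTCA (AP-1) in 13.3% against 6.45%. The composite ETS-IRF motif was in 3.96% against 2.66%, and an NF-κB motif in 5 of 278 against 0.509%. CCAAT was in 42.4% against 37.4%. The order turned for GC-rich letters, with GGGCGG (Sp1) in 13.7% against 51.8% and CACGTG in 4.32% against 8.80%. The comparison set includes promoters with a CGI. Among the 813 promoters without a CGI and with no expression listed in either cell-type, AGGAAGT was in 12.3% and the IRF repeat in 4.3%. TTGCNNAA was in 12.3% of them, TGANTCA in 10.9%, the NF-κB motif in 0.492% and CACGTG in 3.32%. TATAAA (23.4%) and the composite (5.17%) were more frequent there than at the members, and GGGCGG (13.2%) and CCAAT (41.5%) about as frequent. AGGAAGT, the IRF repeat, the composite and the NF-κB motif can share letters, so these shares are not separate counts of sites. Of 89 AGGAAGT matches at members without a CGI, 30 (33.7%) began within 50 bp upstream of the TSS, against 26.9% of the matches over all high-coverage promoters.

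At the promoters without a CGI, a gap in mean occupancy lay upstream of the TSS in DCs and was shallower in fibroblasts. Occupancy was scaled to the mean over all high-coverage promoters of each library. Averaged over the 278 promoters, its minimum was 0.70 at −55 bp in DC_ns and 0.766 at −45 bp in DC_st, and its downstream peak was 1.18 and 1.19 at +115 bp, where the nucleosome after the TSS sits. In fibroblasts the minima were 0.865 in fibro_ns and 0.859 in fibro_st. The ratio of the mean occupancy in the NDR window, −150 to 0 bp, to that of the upstream flank, −1000 to −500 bp, puts this in 1 value. It was 0.766 in DC_ns, 0.774 in DC_st, 0.962 in fibro_ns and 0.936 in fibro_st. The sets of the 2 cell-types did not overlap, and each lay closer to the other set of its own cell-type. No p-value is given for a value over the members.

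**Figure D1:**
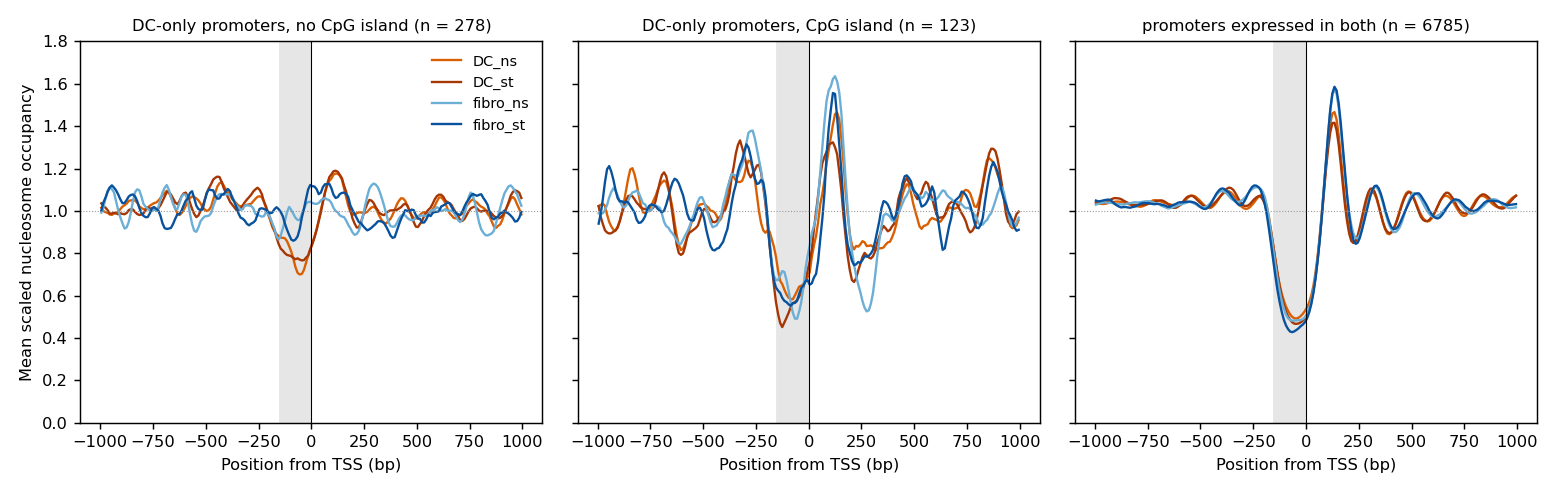
Mean scaled nucleosome occupancy (no unit, 1 is the library mean) against position from the TSS in bp, in the 4 pooled H3K4me1 sets, for 278 DC-only promoters without a CGI, 123 with a CGI and 6785 promoters expressed in both cell-types. The grey band is the NDR window: without a CGI the DC curves reach 0.70 and 0.766 there and the fibroblast curves stay at or above 0.859, while with a CGI all 4 curves go below 0.6.

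The 123 DC-only promoters with a CGI had a gap in both cell-types. Their ratio was 0.629 in DC_ns, 0.574 in DC_st, 0.628 in fibro_ns and 0.579 in fibro_st, with minima between 0.452 and 0.583. The DC and fibroblast values interleaved. Taken as 1 set, the 401 promoters had ratios of 0.725 and 0.714 in DCs and 0.861 and 0.825 in fibroblasts. For the 6785 promoters expressed in both, the ratios were 0.541, 0.519, 0.520 and 0.476 in the same order of sets, and for the 926 listed at 0 in both they were 0.948, 0.985, 0.958 and 0.973. In DCs, members without a CGI thus lay near the 1649 promoters without a CGI that were expressed in both (0.756 and 0.756). In fibro_ns they lay near the 813 without a CGI that were listed at 0 in both (0.971). In fibro_st they lay between those 813 (0.992) and the fibroblast-only promoters without a CGI (0.916), closer to the latter. The 554 fibroblast-only promoters without a CGI had ratios of 0.967 and 0.935 in DCs and 0.914 and 0.916 in fibroblasts, a smaller distance in the opposite direction.

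**Figure D2:**
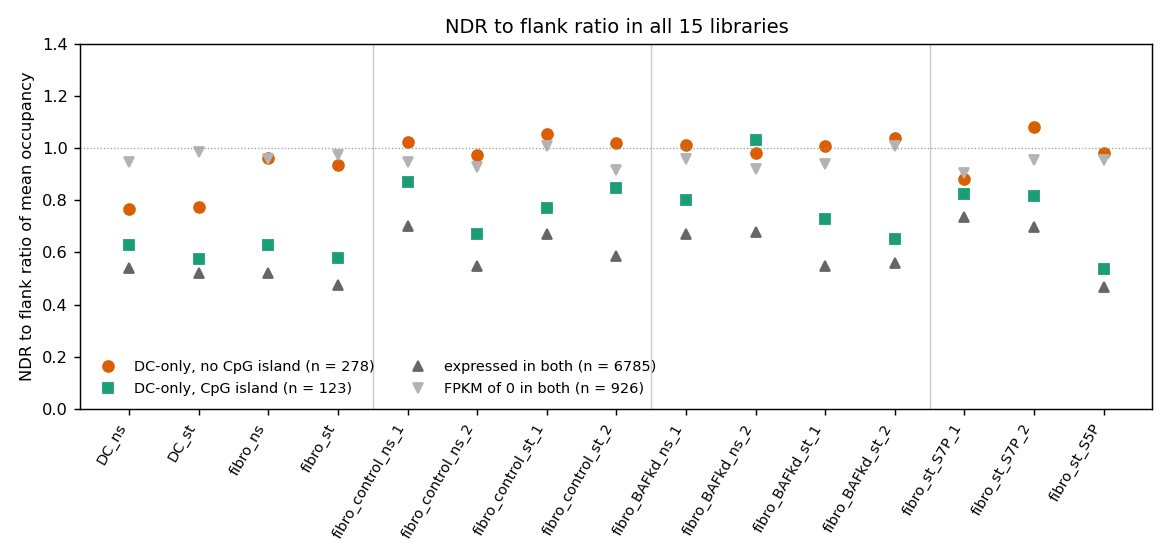
NDR to flank ratio of mean occupancy (no unit) in each of the 15 libraries, for DC-only promoters without and with a CGI, promoters expressed in both and promoters with an FPKM of 0 in both. Points are 1 value per library and carry no error bar. The DC-only promoters without a CGI lie at 0.766 and 0.774 in the DC sets and between 0.883 and 1.08 in all 13 fibroblast libraries.

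The single fibroblast libraries showed no gap on average at members without a CGI. At members without a CGI the ratio was between 0.974 and 1.05 in the 4 control libraries and between 0.983 and 1.04 in the 4 BAF-knockdown libraries, higher than in either DC set. With a CGI it ranged from 0.653 to 1.03 over these 8 libraries. The median over all 401 members of the NDR log2 ratio, calculated for each promoter as the log2 of its NDR over its flank occupancy with 0.1 added to each, was −0.48 in DC_ns and −0.46 in DC_st, −0.22 in fibro_ns and −0.29 in fibro_st, and between −0.17 and −0.04 in the single libraries. The same median over all high-coverage coding promoters was −0.61, −0.70, −0.65 and −0.75 in the pooled sets. Members were thus less depleted than the average promoter in both cell-types, by a smaller distance in DCs.

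Coverage of the members differed between libraries. The deposited values hold no fragment counts, so depth was read from the share of 10 bp bins with any signal. Its median over the members was 98.5% in DC_ns, 96.5% in DC_st, 90.5% in fibro_ns and 87.5% in fibro_st, from 63.5 to 73.5% in the single H3K4me1 libraries and from 56.5 to 70.5% in the pol-II libraries. Between 41 and 46 of the 401 members held no signal in a given single H3K4me1 library and 34 to 39 in a pol-II library, and these were left out there. In the pooled sets none was empty. With members at which at least 80% of the bins had signal in all 4 pooled sets, the ratio without a CGI was 0.785 and 0.773 in DCs and 0.975 and 0.937 in fibroblasts (192 promoters). Values of a single promoter are much less certain than these averages. The NDR log2 ratios of the members in DC_ns and DC_st had a Spearman correlation across promoters of 0.55, those in fibro_ns and fibro_st 0.37, and those in replicate pairs of single H3K4me1 libraries 0.12 to 0.34. The points share libraries and neighbouring promoters and are no replicates.

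Promoter by promoter, the NDR log2 ratio was lower in both DC sets than in both pooled fibroblast sets at 123 of the 401 DC-only promoters (30.7%). The background over all 13559 high-coverage promoters was 16.9%. It was higher in both DC sets at 58 members (14.5%), against a background of 21.0%. The lower ones were mainly without a CGI, with 98 of 278 (35.3%) lower and 33 (11.9%) higher, whereas with a CGI 25 of 123 were lower and 25 higher. Among the 1649 promoters without a CGI expressed in both cell-types, 377 (22.9%) were lower in DCs. The difference, as the mean of the DC sets minus that of the fibroblast sets, had a median of −0.21 over members without a CGI (quartiles −0.76 and 0.23), 0.14 over members with a CGI and 0.08 over all high-coverage promoters. Of the members without a CGI, 172 (61.9%) had a negative difference.

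**Figure D3:**
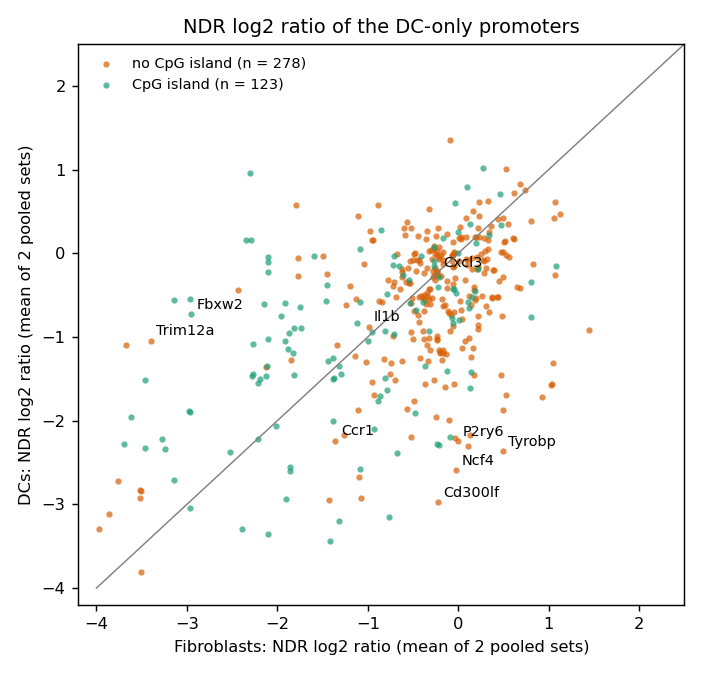
NDR log2 ratio of each of the 401 DC-only promoters in DCs (vertical) against fibroblasts (horizontal), each the mean of 2 pooled sets, coloured by the presence of a CGI, with the line of equal values. Points without a CGI spread below the line, as at Tyrobp, Ncf4, Cd300lf and P2ry6, while Trim12a and Fbxw2 lie above it.

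No single DC-only promoter passed the test. In limma on the 4 pooled sets, 2 of each cell-type, 0 members were called lower or higher in DCs at an adjusted p below 0.05 over all 13559 promoters (background 0.0% in each direction), and the lowest adjusted p was 0.35. At an unadjusted p below 0.05, 28 members (background 2.71%) were lower and 9 (background 5.18%) were higher. The 28 became 9 without DC_st and 14 without fibro_ns, and the 9 became 5 without DC_ns, 17 without fibro_ns and 19 without fibro_st. The 2 sets of a cell-type stand here as its replicates although 1 was stimulated, so the spread includes any effect of the stimulus. Directions at single promoters below are therefore values, not calls.

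The patterning level gave the same order. It sums over the 200 bins the product of the occupancy and a template, the mean profile of promoters expressed in both cell-types, and is large where the NDR and the flanking nucleosomes are pronounced. Its median over the 401 members was 2.35 in DC_ns, 2.92 in DC_st, 0.888 in fibro_ns and 1.38 in fibro_st, against 3.69, 3.93, 3.95 and 4.22 over all high-coverage coding promoters. Both DC sets were above both fibroblast sets at 114 members (28.4%, background 18.2%) and below at 52 (background 20.9%). In limma, 0 members were called in either direction (background 0.0% each). At an unadjusted p below 0.05, 36 were higher in DCs (background 3.33%) and 13 lower (background 4.34%). The 36 became 18 without DC_ns and 19 without DC_st, and the 13 became 8, 4 and 22 without DC_ns, DC_st and fibro_st.

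At members without a CGI, the gap in DCs was deeper where the gene was more expressed in DCs. The 401 members were divided into quartiles of DC expression. Among those without a CGI, the ratio in DC_ns was 0.881, 0.844, 0.733 and 0.580 from the lowest to the highest quartile, and in DC_st 0.899, 0.888, 0.748 and 0.537. In fibro_ns it was 0.961, 0.906, 0.998 and 0.987, and in fibro_st 0.963, 0.834, 1.05 and 0.897, with no such order. Both DC sets were below both fibroblast sets at 18 of 79 (22.8%), 17 of 67 (25.4%), 29 of 66 (43.9%) and 34 of 66 promoters (51.5%). The background was 16.9%. The shares in the lower quartiles were near the 22.9% of promoters without a CGI expressed in both cell-types. In the highest quartile the median DC minus fibroblast difference was −0.78, with 54 of 66 negative. In the lowest quartile the median difference was −0.03. At members with a CGI, the share with both DC sets below was 13.6, 27.3, 11.8 and 26.5% across the quartiles, with no such order.

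**Figure D4:**
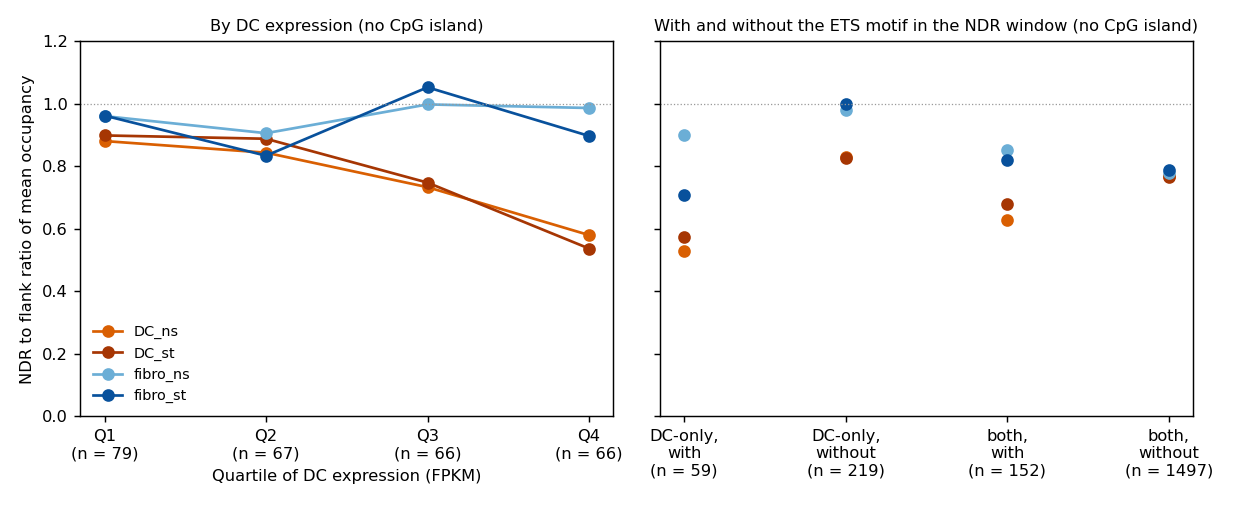
NDR to flank ratio of mean occupancy (no unit) in the 4 pooled sets at promoters without a CGI. On the left DC-only promoters are divided by quartile of DC expression, and on the right DC-only promoters and promoters expressed in both are divided by the presence of AGGAAGT (ETS motif) from −150 to −1 bp. The DC points lie at 0.580 and 0.537 in the highest quartile and at 0.530 and 0.575 with the motif.

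Members without a CGI that held AGGAAGT in the NDR window had a deeper gap in DCs, and in fibro_st as well. Of the members without a CGI, 59 of 278 (21.2%) held the motif from −150 to −1 bp, against 6.03% of all high-coverage promoters. Their ratios were 0.530 in DC_ns and 0.575 in DC_st, and 0.901 in fibro_ns and 0.709 in fibro_st. For the 219 without it the ratios were 0.829 and 0.826 in DCs and 0.979 and 0.999 in fibroblasts. Both DC sets were below both fibroblast sets at 27 of the 59 (45.8%) and at 71 of the 219 (32.4%), against 203 of the 818 with the motif among all high-coverage promoters (24.8%). Promoters with the motif were also more expressed, with a median of 1.09 FPKM in DCs against 0.433. Among members of the 2 lower expression quartiles the DC ratios were 0.533 and 0.556 with the motif (24 promoters) and 0.928 and 0.954 without it. In the 2 upper quartiles they were 0.528 and 0.587 with it (35 promoters) and 0.702 and 0.660 without. The fibroblast ratios in the lower quartiles were 0.738 and 0.688 with the motif and 0.976 and 0.947 without it, so the gap was deeper with the motif there as well. In the upper quartiles the fibroblast ratios were 1.02 and 0.725 with it and 0.983 and 1.07 without, so the gap was deeper with the motif in fibro_st only. The share with both DC sets below was 12 of 24 with the motif and 23 of 122 without it in the lower quartiles, but 15 of 35 (42.9%) with it and 48 of 97 (49.5%) without it in the upper ones, where the order turned. Among promoters without a CGI expressed in both cell-types, 152 held the motif, with ratios of 0.628 and 0.679 in DCs and 0.854 and 0.821 in fibroblasts. The 1497 without it had 0.769 and 0.764 in DCs and 0.780 and 0.788 in fibroblasts. The order in DCs did not extend to all classes. At fibroblast-only promoters without a CGI the DC ratios were 1.01 and 0.934 with the motif (31 promoters) and 0.965 and 0.935 without it, and at those listed at 0 in both cell-types 0.854 and 1.08 with it (61 promoters) and 0.955 and 0.979 without it. The IRF repeat was in this window at 18 members without a CGI, with ratios of 0.748 and 0.618 in DCs and 0.920 and 0.867 in fibroblasts. TATAAA was there at 37, with 0.850 and 0.751 in DCs and 0.888 and 0.935 in fibroblasts.

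Lists of 244 immune and haematopoietic genes, grouped by role, held 32 DC-only genes with 33 promoters. Both DC sets lay below both pooled fibroblast sets at 14 of the 33 (42.4%, background 16.9%) and above at 0, and the median difference was −0.74, against 0.08 over all high-coverage promoters. Only 2 of the 33 had a CGI. Over all members without a CGI the share below was 35.3%, and in their upper expression quartiles it was 43.9% and 51.5%. The share in the lists was thus within the range of other DC-only promoters without a CGI. None of the 33 was called by limma. The naming rule, which takes up to 4 members of highest DC expression from each list, gave 19 promoters, and 24 others named below were chosen after their values were seen. Both DC sets were lower at 23 of these 43. The median of the 8 single fibroblast libraries, which had no part in that order, was above both DC values at 22 of the 23 (not at Gmfg). At 12 of the 23 at least 1 of the 8 libraries was below both DC values. The median was also above both DC values at 9 of the 15 named promoters that overlapped and at 2 of the 5 higher in DCs. The 23 are low in DCs by selection and DCs have no further library, so this is no independent check of the order.

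**Figure D5:**
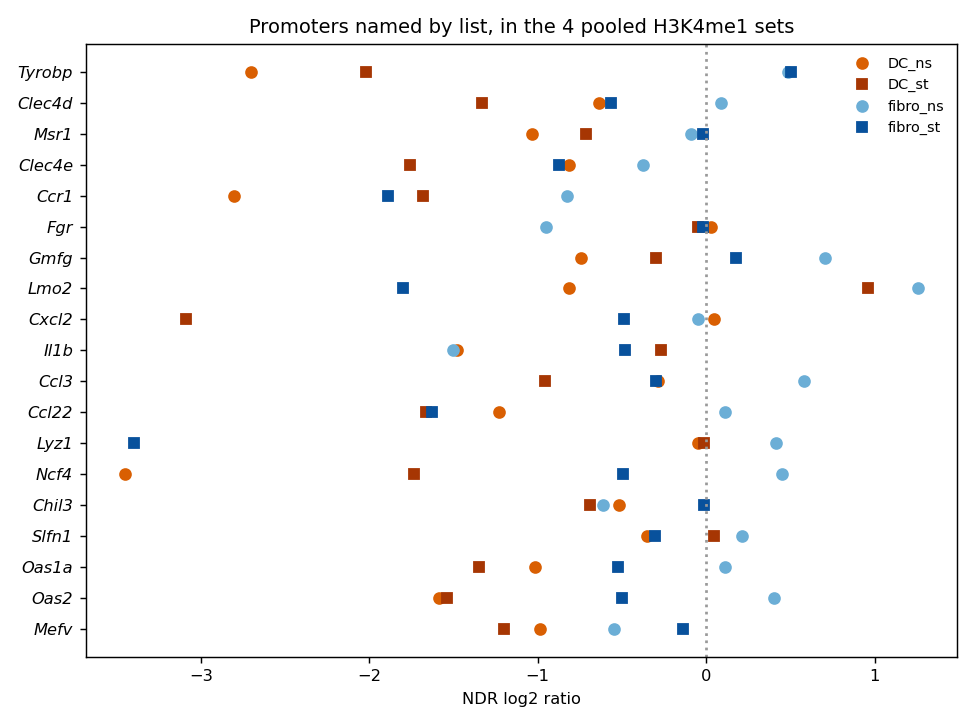
NDR log2 ratio of 19 DC-only promoters named by the list rule, in the 4 pooled sets (circles non-stimulated, squares stimulated, orange DCs, blue fibroblasts). Both DC points lie to the left of both fibroblast points at Tyrobp, Clec4d, Msr1, Gmfg, Ncf4, Oas1a, Oas2 and Mefv, and the points interleave at the others.

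Of 42 receptors for microbes and antigen uptake, 10 were DC-only genes. Of their 10 promoters, 6 were lower in both DC sets (background 16.9%), with a median difference of −0.78. None of the 10 had a CGI, and the count is too small to set apart from the 35.3% of members without a CGI. Tyrobp encodes the adaptor through which many myeloid receptors signal, and was expressed at 52.8 FPKM in DCs. Its NDR log2 ratio was −2.70 in DC_ns, −2.02 in DC_st, 0.48 in fibro_ns and 0.51 in fibro_st. The scaled occupancy in its NDR window was 0.0346 and 0.169 in DCs and 1.06 and 1.48 in fibroblasts, so the pooled sets did not overlap. The difference was −2.86 ± 0.50 (SE), with an adjusted p of 0.35 in limma. The single fibroblast libraries did not repeat the fibroblast level. Their ratios were −3.89 and 0.48 in control without stimulation, 0.08 and −3.11 in control with TNF-α, −3.17 and −0.32 in the knockdown without stimulation, and 0.36 and −1.14 in the knockdown with TNF-α. In 3 of the 8 the Tyrobp promoter was as depleted as in DCs or more so, and with these libraries in the fit the difference was −1.39. Both S7P libraries were below both DC values, at −3.59 and −3.32, and S5P was at −0.50.

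Msr1, a scavenger receptor, had NDR log2 ratios of −1.04 and −0.71 in DCs and −0.09 and −0.02 in fibroblasts, and its 8 single libraries lay between −0.65 and 1.10 (median 0.19). S7P gave −3.20, below both DC values, and 0.51 at Msr1, and S5P gave −0.29. At Clec4d, a C-type lectin that recognises mycobacterial glycolipid, the values were −0.64 and −1.33 against 0.09 and −0.57. In the pol-II libraries Clec4d had 0.15 and −0.60 (S7P) and −3.58 (S5P). Its neighbour Clec4e (Mincle) had −0.81 and −1.76 against −0.38 and −0.87, which overlapped. At both, the DC sets had the lower mean, but the gap to the nearest fibroblast set was small or absent. Clec4a3, at the other end of the same cluster, had −1.90 and −1.29 against −0.10 and −0.19, with single libraries between −0.68 and 0.17. S7P gave 0.02 and 1.18 at Clec4a3, but S5P gave −3.74, below both DC values. Cd300lf, an inhibitory receptor for lipids on myeloid cells, had −2.78 and −3.17 in DCs and −0.88 and 0.44 in fibroblasts. Its difference of −2.75 ± 0.64 (SE) had an adjusted p of 0.41 in limma. Fcgr1, the high-affinity IgG receptor, had −2.01 and −1.06 against −0.46 and −1.45, which overlapped.

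Several receptors for small molecules were outside the lists. P2ry6, which responds to extracellular UDP, had −2.0 and −2.50 in DCs and −0.39 and 0.38 in fibroblasts. The proton sensor Gpr65 had −2.47 and −0.93 against 0.88 and 0.18, and Gpr132 had −1.15 and −1.12 against −0.02 and 0.34. All had DC values below both pooled fibroblast values. Over the single libraries the medians were −0.19 for P2ry6, 0.11 for Gpr65 and 0.10 for Gpr132, each above its DC values. At P2ry6 none of the 8 was below both DC values, but both S7P libraries were, at −3.29 and −3.39. At Gpr65 and Gpr132 1 of the 8 was below both, at −2.97 and −2.61. S7P replicate 1 was below both as well, at −3.00 and −1.84, while S7P replicate 2 was at 1.34 and 0.27. Slamf9, a receptor of the SLAM family, had −1.71 and −1.20 against 0.40 and −0.06, and its single libraries ranged from −3.60 to 1.12. Lilr4b, an immunoglobulin-like receptor, had −0.29 and −3.47 against 0.57 and 0.42, so that the stimulated DC set carried most of its difference.

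No MHC class II gene of 15 was DC-only. Of these, 12 had a fibroblast value above 0, 2 were at or below the DC limit and 1 had no promoter of high coverage. Of 28 adhesion and migration genes only Ccr1 was a member. This chemokine receptor had −2.81 and −1.68 in DCs, −0.83 and −1.89 in the pooled fibroblast sets and −0.95 to 0.82 in the single ones. The DC promoter was thus depleted, and fibro_st was as well. Of 47 signalling genes, 2 were DC-only: Gmfg, an actin regulator of blood cells, with −0.75 and −0.30 against 0.70 and 0.18, and Fgr, a Src-family kinase, with 0.03 and −0.05 against −0.95 and −0.02. Fgr was expressed at 3.45 FPKM and showed no gap in DCs. Gmfg turned to a difference of 0.10 when the single libraries were included. Of 30 lineage transcription factors only Lmo2 was a member, and its values of −0.82 and 0.96 in DCs and 1.26 and −1.80 in fibroblasts showed no order. Its difference of 0.35 became −0.54 without DC_st and −1.18 without fibro_st.

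Of 34 co-stimulatory, cytokine and chemokine genes, 11 were DC-only and 3 of their 11 promoters were lower in both DC sets, a count too small to set apart from the background of 16.9%. Il12b entered the set under an accession without a symbol and was not counted in this list. Tnf had −1.32 and −2.60 in DCs and −0.08 and −0.40 in fibroblasts, with single libraries from −0.92 to 1.28 (median 0.58). Cd86, a ligand that co-stimulates T cells, had −1.21 and −1.71 against 0.79 and 0.15. Both promoters had DC values below both pooled fibroblast values. The single libraries of Cd86 ran from −3.53 to 1.11 (median −0.12), and 2 of the 8, both non-stimulated, were below both DC values. The chemokine genes Ccl3 and Ccl22 did not separate. At Ccl3 the values were −0.29 and −0.96 against 0.58 and −0.30, and at Ccl22 −1.23 and −1.66 against 0.11 and −1.63. Without fibro_ns the difference at Ccl22 turned from −0.69 to 0.18.

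High expression did not always go with separate cell-types. Cxcl3, a neutrophil chemokine and the most expressed member at 145 FPKM, had no gap in either cell-type, with −0.41 and −0.04 in DCs and −0.26 and −0.21 in fibroblasts, a difference of 0.01 ± 0.47 (SE, adjusted p of 1.0 in limma). Without DC_st this difference was −0.18, and without fibro_ns −0.02. Mmp12, the macrophage elastase, was expressed at 82.8 FPKM with −0.19 and −1.07 against −0.07 and 0.67, so that both DC values were lower, mainly in DC_st. At Cxcl2 the value was 0.05 in DC_ns and −3.08 in DC_st, against −0.05 and −0.49 in fibroblasts. Its difference of −1.25 became 0.32 without DC_st. Acod1, which makes itaconate in activated myeloid cells, had −0.30 in DC_ns and −2.26 in DC_st, against 0.00 and −0.35. Cxcl2, Acod1 and Lilr4b thus had a lower value in the LPS-treated set, while Il1b had the reverse order, with −1.48 in DC_ns and −0.27 in DC_st. There is 1 set for each condition of DCs, so these differences carry no replicate check. At Il1b the fibroblast values were −1.50 and −0.48, and the difference of 0.12 turned to −0.49 without DC_st and −0.40 without fibro_ns. Mgl2, a lectin of macrophages and DCs expressed at 15.9 FPKM, had 0.69 and −0.17 in DCs and −1.25 and −0.70 in the pooled fibroblast sets. The single libraries of Mgl2 did not repeat that fibroblast level, with a range from −0.72 to 0.88 and a median of 0.56, and with them in the fit its difference of 1.24 became 0.27.

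Of 23 genes of the oxidase, lysosome and granules, 3 were DC-only. Ncf4, a subunit of the phagocyte NADPH oxidase, had −3.45 and −1.74 in DCs and 0.45 and −0.49 in fibroblasts, with 0 occupancy in its NDR window in DC_ns. Its difference was −2.57 ± 0.80 (SE, adjusted p of 0.54 in limma), and its single fibroblast libraries lay between −1.27 and 0.70. S7P gave 1.26 and 1.18 at Ncf4, but S5P gave −3.54, below both DC values. Lyz1, a lysozyme, had −0.05 and −0.01 against 0.41 and −3.40, and its difference of 1.46 became −0.44 without fibro_st. Chil3, a chitinase-like protein, had −0.52 and −0.69 against −0.61 and −0.01, and its difference of −0.29 was 0.01 without fibro_st. Outside the lists, Aoah, which inactivates LPS, had −0.85 and −2.57 against 0.79 and 1.05.

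Of 25 inflammasome and nucleic acid sensors, 4 were DC-only by symbol and 3 of these were lower in both DC sets (background 16.9%). None of the 4 had a CGI, and the count is too small to set apart from the 35.3% of members without a CGI. Mx1 was a member under an accession only. Oas1a and Oas2, interferon-induced enzymes that make 2′-5′ oligoadenylate upon sensing double-stranded RNA, had −1.01 and −1.35 against 0.11 and −0.53, and −1.58 and −1.54 against 0.40 and −0.50. Their single libraries ran from −3.65 to 3.16 (median −0.08) at Oas1a and from −3.49 to 0.69 (median −0.29) at Oas2, with 2 and 1 of the 8 below both DC values. Both carry the IRF repeat in the stretch printed above. Mefv, which encodes pyrin, had −0.99 and −1.20 against −0.55 and −0.14, and single libraries from −0.51 to 1.49. Slfn1 showed no gap, with −0.35 and 0.05 against 0.21 and −0.31, and its difference of −0.11 was 0.09 without DC_ns and 0.15 without fibro_ns. Nlrp1a, an inflammasome sensor, had −1.19 and −1.44 against 0.86 and 1.23, at an expression of only 0.372 FPKM. Its single libraries were all above both DC values, the lowest at −1.17. S7P gave 0.13 and 1.44 at Nlrp1a, but S5P gave −3.51, below both DC values.

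At some promoters the pooled fibroblast sets had the deeper gap. Trim12a, of the Trim5-like antiviral family, had −1.37 and −0.72 in DCs and −3.40 in both pooled fibroblast sets, where its NDR window held no signal. The 8 single libraries lay between −4.71 and −3.75, while S7P gave −0.91 and 4.43. Trim12a was the single member called when the single libraries were included (2.76 ± 0.46 SE, adjusted p of 0.032 in limma, 2 DC sets against 10 fibroblast libraries), and was not called with the pooled sets alone (adjusted p of 0.36 in limma). It has close paralogues, between which reads could be divided. Zfand2b, a proteasome-associated protein with a CGI, had −1.41 and −1.62 against −3.31 and −3.62, and Fbxw2, an F-box protein with a CGI, had −0.70 and −0.75 against −2.95 and −2.96. The single libraries of Zfand2b ran from −3.53 to −0.31 with a median of −3.08. Those of Fbxw2 ran from −2.91 to 0.37 with a median of −0.65, close to its DC values, and with them in the fit its difference of 2.23 became 0.47. Stat3 had −0.91 and −3.66 in DCs and −3.63 and −3.77 in fibroblasts, so its promoter was depleted in the cells where its expression is listed at 0. Dbnl, an actin-binding protein, was depleted in all 4 pooled sets and more so in DCs, with −3.50 and −3.20 against −2.19 and −2.01. Its single libraries ran from −3.58 to 0.82 with a median of −0.12.

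The 34 histone promoters were depleted in both cell-types, with ratios of 0.602 and 0.527 in DCs and 0.539 and 0.644 in fibroblasts. Of these, 9 were lower (26.5%, background 16.9%) and 9 higher (26.5%, background 21.0%) in both DC sets, and the median difference was 0.00. Single histone promoters went in both directions. H4c8 had −3.32 and −2.97 against −0.91 and −0.62, H3c13 had −3.46 and −2.94 against −1.98 and −0.66, and H2bc13 had 0.71 and 1.22 against −1.18 and −3.42. The single libraries of H2bc13 ran from −3.60 to 2.32, and histone genes are near-identical copies, so their single values are uncertain. The 11 promoters near a fibroblast-expressed TSS had ratios of 0.580 and 0.510 in DCs and 0.413 and 0.377 in fibroblasts. The 325 other promoters had 0.732 and 0.745 in DCs and 0.916 and 0.868 in fibroblasts. Of these, 106 (32.6%, background 16.9%) were lower and 38 (11.7%, background 21.0%) higher in both DC sets.

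Median differences upon stimulation were near 0. The LPS-treated minus non-stimulated DC difference had a median of 0.00 over the 401 members, with 200 negative, and the TNF-α difference in the pooled fibroblast sets had a median of −0.01, with 203 negative. Over all high-coverage promoters these medians were −0.07 and −0.09. In the 8 single libraries, 350 members had signal in each. TNF-α minus non-stimulated had a median of −0.03, and BAF knockdown minus control a median of −0.03, with 178 of 350 negative. In limma with both terms, 0 members were called for either term (background 0.0% in each direction, 13309 promoters tested). At an unadjusted p below 0.05, BAF knockdown gave 7 members lower (background 2.37%) and 6 higher (background 2.49%), and TNF-α gave 8 lower (background 3.9%) and 2 higher (background 1.6%). The interaction of the 2 terms gave 8 lower (background 3.91%) and 6 higher (background 1.76%) at this level and 0 calls. The counts are small and shift with single libraries. The 7 became 4 without control replicate 1 of either state and 11 without control replicate 2 of the non-stimulated state. The 8 for TNF-α became 4 without a knockdown library (replicate 1 or 2 non-stimulated, or replicate 2 with TNF-α), and the 2 became 7 without replicate 1 of the non-stimulated knockdown, 5 without replicate 1 of the non-stimulated control or of the stimulated knockdown, and 4 without replicate 2 of the non-stimulated control. In members without a CGI the knockdown minus control median was −0.02.

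In the pol-II libraries of TNF-α-stimulated fibroblasts, members without a CGI had ratios of 0.883 and 1.08 (S7P) and 0.982 (S5P), and members with a CGI 0.823, 0.816 and 0.535. Nucleosomes recovered with S5P, the form of pol-II near the start of transcription, thus showed a gap at the members with a CGI. The bins with signal at members without a CGI had a median share of 47.5% in the S5P library, against 83.0% with a CGI. The antibody and the type of reads (paired instead of single) differ together from the H3K4me1 libraries of TNF-α-stimulated fibroblasts and cannot be told apart.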

How the data were processed

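Mouse mm9 was the build throughout. The authors aligned reads with Bowtie (Bowtie2 per the processing notes), removed excess duplicates, used nucleosome-sized fragments (140 to 180 bp when paired-end, otherwise single reads extended), and deposited nucleosome occupancy as a signal, the fragments per 10 bp bin relative to the surrounding 1 kb, averaged over overlapping 50 bp bins (200 bins per TSS). This scale removes differences in total coverage between promoters. The deposited annotation gives a coverage score as a signal and expression in FPKM from public RNA-seq, with scales that differ between the cell-types. Its deposited log2 differences of arrays upon stimulation were not used. Depth in counts is not held by these values, so no counting intervals are given.

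Occupancy was divided by the library mean over promoters with a score above 100, and empty bins were read as 0. The NDR log2 ratio compares −150 to 0 bp with −1000 to −500 bp, with a pseudocount of 0.1. It was fitted with limma 3.58.1 (R 4.3.3) over all high-coverage promoters with signal in every library of the fit, with Benjamini-Hochberg adjustment at 0.05, by cell-type in the 4 pooled sets and by knockdown and stimulation in the 8 single libraries. The fits were tested on simulated data. CGIs and motifs were read from the mm9 sequence with pysam 0.24.0. Members, lists and tests were chosen with earlier results of these data known. Named promoters were up to 4 of highest DC expression per list and those nearest each threshold. The rule also asked for called promoters, and the sequences printed were to be those of called promoters, but limma called none, so other promoters and sequences were chosen after values were seen. Symbols matched 383 of the 401 members.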

Additional observations from a re-analysis of the deposited data

How the results depend on the processing

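Each of the 15 alternatives of the cell-type fit of the NDR log2 ratio, the 8 of the patterning fit and the 15 of the knockdown and TNF-α fits gave 0 called members, except that 2 DC sets against 10 fibroblast libraries gave 1 higher (Trim12a). In every NDR and member alternative run, the share of members lower in both DC sets stayed between 28.7 and 35.0%, and the share higher between 9.45% (members with 80% of bins filled, against 14.5%) and 16.2%.

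Levels moved with the window and the subset. The median NDR log2 ratio of the DC sets (−0.47) was −0.50 with a pseudocount of 0.05, −0.40 with 0.25, −0.30 with a window from −200 to 50 bp, −0.46 with 1 row per gene and −0.40 without members that have another TSS within 1000 bp. With that window it was −0.11 in the pooled fibroblast sets (main value −0.25), −0.048 in control, −0.044 in knockdown and −0.18 in S5P libraries, and without neighbouring TSSs −0.18 in the pooled fibroblast sets and −0.057 in control libraries. The DC ratio without a CGI (0.770) was 0.819 from −200 to 50 bp, 0.748 from −100 to 0 bp, 0.778 without repeated accessions and 0.779 with 80% of bins filled, while the fibroblast ratio stayed between 0.956 and 0.966. With a CGI it was 0.698 in DCs from −200 to 50 bp (main value 0.602). In fibroblasts it was 0.676 with that window, 0.645 without repeated accessions and 0.727 with 80% of bins filled (main value 0.603). The cause of these shifts was not tested.

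Of the 43 promoters named with a difference, 10 changed sign under some alternative. With a window from −100 to 0 bp, Fgr was −0.29 and Slfn1 0.29. From −200 to 50 bp, Il1b was −0.38 and Cxcl3 −0.22, and Cxcl3 was −0.045 with flanks on both sides. Without the logarithm Lmo2 was −0.055 in units of scaled occupancy. Against 10 fibroblast libraries Gmfg was 0.10 and Il1b −0.62. Leaving out 1 pooled set at a time gave ranges of −1.18 to 1.87 for Lmo2, −2.81 to 0.32 for Cxcl2, −0.49 to 0.72 for Il1b, −1.55 to 0.18 for Ccl22, −0.44 to 3.37 for Lyz1, −0.59 to 0.012 for Chil3, −0.37 to 0.15 for Slfn1 and −0.18 to 0.19 for Cxcl3. A fit that leaves a cell-type with 1 set assumes that this set varies like the others.

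With the replicate number as a block, the knockdown and TNF-α fits also gave 0 calls. Same-numbered libraries did not deviate together (Pearson correlations of deviations from −0.00879 to 0.0221 over 13309 promoters), so the numbers were not taken as pairs. With 2 sets per cell-type, differences at single promoters have wide errors, and a count of 0 calls does not show that occupancy was alike. Single libraries fill a median of at most 73.5% of the bins at members.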
